A study of Mus musculus with 12 samples.

Results

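The transcripts described here are the 391 of 87740 deposited gene models whose source column reads Cufflinks in place of a biotype such as protein_coding or pseudogene. They were chosen by that word alone, no transcript mixed it with another source, and the remaining 87349 transcripts carried a biotype. The 391 lay at 379 of the 35406 loci of the file and held 2720 of its 624665 exon lines. The models belong to an mRNA sequencing study of the nucleus accumbens, a reward region of the ventral striatum, in C57BL/6 mice (C57BL/6 J in the study's methods) of 8 to 10 weeks. Each of the 4 groups had 3 samples, and each sample pooled the accumbens of 3 to 5 animals. The groups were repeated cocaine (7 days at 20 mg/kg, intraperitoneal), its repeated saline controls, acute cocaine (6 days of saline and then 1 day of cocaine at 20 mg/kg) and its saline controls. The models are shared by all 12 samples and hold no read count or expression value, so no difference between cocaine and saline, no depth and no marker of the tissue could be read from them.

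A gene is usually transcribed into several RNAs that differ in splicing, in the site where transcription starts and in the site where the RNA is cleaved and polyadenylated. Transcripts that keep the same chain of introns can still begin and end at different bases, and can be annotated with different start codons, so that proteins of one gene differ at their amino terminus. Processed pseudogenes are copies of spliced mRNAs that were inserted back into the genome, which is why most of them have a single exon.

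Every Cufflinks-source transcript had a gene_name and the class code "=". Each also had an oId (the reference transcript from which the model was made) and a nearest_ref (the reference transcript it was matched with). For transcripts with introns, the class code "=" marks an identical intron chain. For 350 of the 391 (89.5%; 95% Wilson interval 86.1 to 92.2%, counting error only) the oId and the nearest_ref were different reference transcripts, against 0 of 87349 other transcripts. In all 350 the nearest_ref was the oId of no transcript in the file. The remaining 41 had the same oId and nearest_ref. All 41 consisted of a single exon and were the only transcript of their locus. No intron chain of the file, out of 75755, was carried by more than 1 transcript.

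The sequences that follow show differences between annotated models: start codons of oId and nearest_ref, gaps in the oId, and ends against a partner transcript. The letters were read from the NCBIM37 (mm9) genome at coordinates of GENCODE M1, another gene set on the same build. The first set holds the 14 pairs in which both models of one intron chain have a complete coding sequence, share the stop codon and have start codons at most 8 codons apart in one exon. The set was chosen after the values were seen. Each line gives the first 30 coding bases of the longer coding sequence, with both annotated start codons in capitals.
Gng7 (chr10:80415630-80415659, minus): ATGATGtcaggtactaacaacgtcgcccag
Mia1 (chr7:27966038-27966067, minus): ATGATGgtgtggtccccagtgctccttggc
Birc3 (chr9:7861286-7861315, minus): ATGaacATGgttcaagacagcgcctttcta
Erlin1 (chr19:44143845-44143874, minus): ATGaatATGactcaagcccggcttctggtg
Katna1 (chr10:7458528-7458557, plus): ATGaccATGagtcttcaaatgattgttgag
Mup9 (chr4:60434729-60434758, minus): ATGaagATGctgctgctgctgtgtttggga
Rgs11 (chr17:26339918-26339947, plus): ATGgccATGgttacccgctgcacaccccac
Chid1 (chr7:148718808-148718837, minus): ATGcctgccATGtggccacttcttcatgtc
Miip (chr4:147240437-147240466, minus): ATGcccaatATGgcagagactaaagacccc
Casq1 (chr1:174149792-174149821, minus): ATGagagctaccgacaggATGggggccaga
Fcgr3 (chr1:172989455-172989484, minus): ATGactttggacacccagATGtttcagaat
Arhgap44 (chr11:64976111-64976140, minus): ATGaagaagcagtttaaccgcATGcgccag
Lmf1 (chr17:25716132-25716161, plus): ATGcgcccagacagcctagtaATGgctgcg
Sva (chr6:41988400-41988429, plus): ATGtatgccaacccatacagcATGgcttct

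The second set holds coding sequences that GENCODE M1 begins without a start codon and that open with CTG, in Vegfa and Wt1. Vegfa encodes the vascular endothelial growth factor A and Wt1 a zinc finger transcription factor of kidney and gonad, and translation from an upstream CUG is known for both mRNAs. The first triplet is in capitals.
Vegfa (chr17:46168810-46168839, minus): CTGacggacagacagacagacaccgccccc
Wt1 (chr2:104966954-104966983, plus): CTGgacttcctcctgtcgcaggagccggct

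The third set holds places where GENCODE M1 leaves out 1 to 4 bases between exons of the oId, while the deposited transcript runs through them as 1 exon. Capitals mark the bases that GENCODE M1 leaves out.
Vegfa (chr17:46162239-46162266, minus): gggggcaggggggGCaggaggacagtgg
Myo1c (chr11:75485106-75485135, plus): aaaatacgaccgtAAGGgttacaagcctcg
Smc2 (chr4:52499491-52499518, plus): gaaggaagcaaagTCcagaggaaaagaa
Zfp954 (chr7:7068437-7068463, minus): gcataatatctccCttatttctcatca
Zfp768 (chr7:134488148-134488175, minus): tgagtttgcacccAGaagtcctgaatca
Olfr377-ps1 (chr11:73201804-73201831, minus): aggcatccacaggTCttctccacttgtg
Gm11868 (chr4:18772461-18772488, minus): tggcatgcttcccAAgtgtcagacacac

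The fourth set shows the last 30 bases of single-exon Cufflinks-source transcripts, with the bases by which they reach past their partner in capitals. The set was chosen after the values were seen.
Rpl9-ps3 (chr11:53315235-53315264, plus): aagggaaccgtgcagcaggctgaagagTGA
Gm10059 (chr5:34102156-34102185, plus): aaggacataggcttcattaagttggacTAA
Gm15487 (chr6:37756524-37756553, plus): atcgtggccctaatcctctccacaaagTAG
Gm9769 (chr6:85794427-85794456, plus): gatgatgaaaagatgccagatctggagTAA
Gm4887 (chr7:111970741-111970770, plus): ccagcggaagcagaagccactactgacTAA
Gm5456 (chr14:8074775-8074804, plus): agacaccatgctaagtacctgaatgCATGA
RP24-152K24.5 (chr14:6167809-6167838, plus): agacaccatgctaagtacctgaatgCATGA

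The Cufflinks-source transcripts were longer than the rest of the file once spliced. Their median spliced length was 2101 bases (range 171 to 8252), against 1106 bases (10 to 106824) in the other transcripts and 1451 bases in the other transcripts of protein_coding biotype. That biotype is the word in the source column. It stood on 71896 others, while GENCODE M1, another gene set, types 46929 others as protein_coding. The exon number of the Cufflinks-source transcripts had a median of 5 (quartiles 2 to 10, range 1 to 32), against 4 (2 to 9, range 1 to 347) in all others. Among transcripts with introns the medians were 2594 bases and 6 exons, against 1406 bases and 5 exons. Their median span on the genome was 13800 bases, against 9393 bases. The other transcripts at the same loci had medians of 1196 spliced bases, 5 exons and a span of 14485 bases. Against these, only the spliced length of the Cufflinks-source transcripts was greater. These are complete counts of a file, and no test was made of them.

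**Figure D1:**
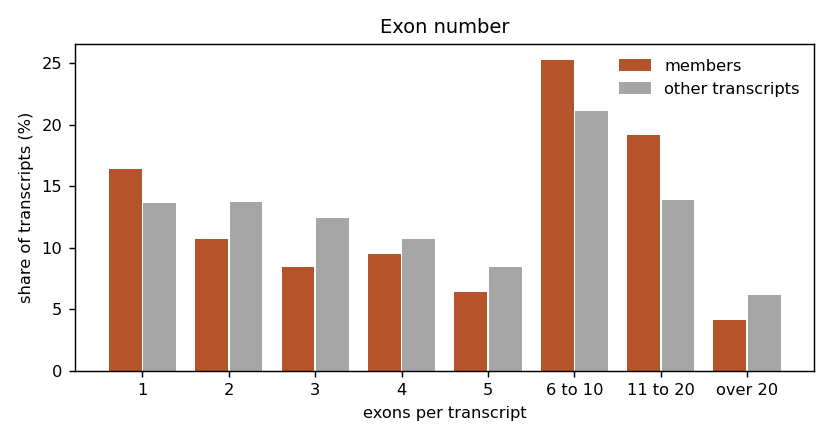
Share of transcripts (%, vertical axis) by number of exons (horizontal axis) for the 391 Cufflinks-source transcripts and the 87349 other transcripts. Of the Cufflinks-source transcripts, 64 (16.4%) had 1 exon and 99 (25.3%) had 6 to 10, against 13.6% and 21.1% of the others.

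None of the 391 had a gap between exons of under 50 bases, which allows a share of up to 0.973% by the Wilson interval. Of the other transcripts, 548 (0.627%) had such a gap, 248 had one under 30 bases and 120 one under 10 bases. No transcript had overlapping or touching exons. Of the 2329 introns of the Cufflinks-source transcripts, 2313 (99.3%) began with GT and ended with AG, 14 had GC and AG, and 2 had AT and AC. Among 534331 introns of at least 30 bases in the other transcripts the share with GT and AG was 98.1%, and 0.926% had none of these 3 pairs, against 0 of 2329. The AT to AC introns, a form removed by the minor spliceosome, lay in E2f3 and Plcz1. These genes, a cell cycle transcription factor and the sperm phospholipase that activates the egg, were named after their values were seen.

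Hip1r and Myo1c had the most exons, 32 each. Hip1r links clathrin coats to actin and Myo1c is a myosin motor of the cell membrane. Mast2, a microtubule-associated kinase, followed with 30 and 29 exons in a pair of Cufflinks-source transcripts. Dpp6 had 26 exons and the longest span, 909104 bases on chromosome 5, and encodes an auxiliary subunit of the Kv4 potassium channels that carry the A-type current of neurons. Grip1, a scaffold of AMPA-type glutamate receptors, spanned 622770 bases in 22 exons on chromosome 10. Sidt1 (26 exons), Smc2 (25), Stat2 and Ttc17 (24 each) were also among the 10 with the most exons, and Fam189a1 (400458 bases), Tmem195 (340562) and Pard3 (338508) among the 5 with the longest span. Smc2 is a condensin subunit and Stat2 a transcription factor of interferon signalling. Pard3 is a cell polarity protein. The longest single-exon models were Gm11868 (1580 bases), 4930480E11Rik (1486), Gm15163 (1302), Gm371 (1245) and Gm9855 (1242).

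None of the 391 lay on chromosome Y or M. Chromosome 2 held 47 of the 391, against 9611 of the 87349 other transcripts, chromosome 11 held 38 (9.72%, against 9.25%) and chromosome 4 held 37 (9.46%, against 8.19%). The share on chromosome X was 8.95% (35 transcripts; Wilson interval 6.51 to 12.2%), against 5.43% of the other transcripts. Counted by locus, it was 8.71%, against 7.09%. Chromosome 15 held 3 (0.767%; interval 0.261 to 2.23%), against 3.06%. The plus strand carried 211 of the 391 (54.0%), against 50.5% of the others.

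**Figure D2:**
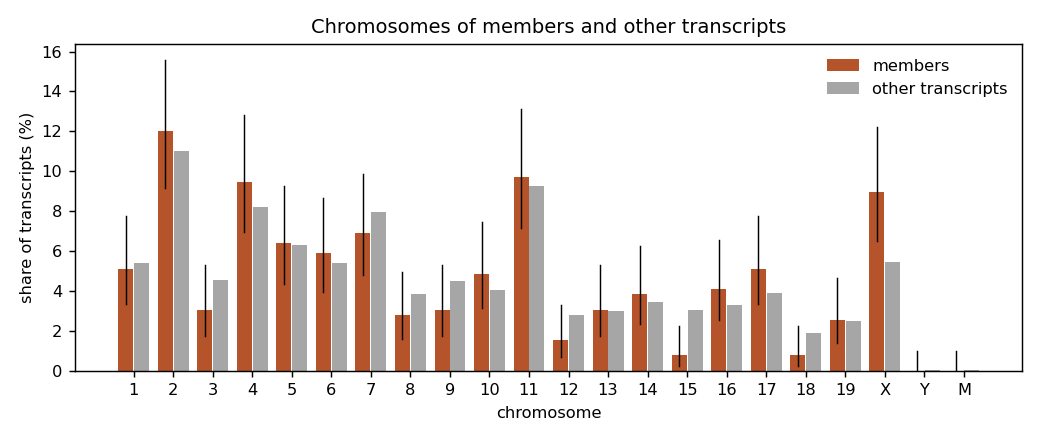
Share of transcripts (%) on each chromosome for the 391 Cufflinks-source transcripts and the 87349 other transcripts; black lines are 95% Wilson intervals of the Cufflinks-source share. Chromosome X held 8.95% against 5.43%, and chromosome 15 held 0.767% against 3.06%.

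For the 350 Cufflinks-source transcripts with 2 different references, GENCODE M1 holds the nearest_ref of 325 and the oId of 301. The nearest_ref had exactly the introns of the deposited transcript in 286 of 325 (88.0%) and had them in 319 (98.2%) once gaps under 5 bases were closed. The 6 with other introns were Cobl, Drap1, Esrrb, Fam175b, H2-T3 and Tcp10b, named because the count is small. Of the 286, 266 had introns and 20 were single exons. The deposited transcript was the longer one in 281 of 286. Over all 286 pairs the median difference in spliced length was 55 bases (quartiles 6 to 534). The differences ran up to 4045 bases. Among Cufflinks-source transcripts with introns, 192 of 327 (58.7%) had an intron chain that 2 or more GENCODE M1 transcripts carry, against 1017 of 75428 (1.35%) others. All 327 have 2 different references matched to one chain in the file, and none of the others does. This contrast was therefore given by the attributes, and the 58.7% only counts the chains that GENCODE M1 also holds more than once.

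Which end was longer followed the strand. On the plus strand the deposited transcript reached past its nearest_ref at the 3′ end in 154 of 154 pairs, by a median of 342 bases (range 1 to 4057), and never at the 5′ end. There the 5′ end was the same base in 89 pairs and fell short in 65. On the minus strand it reached past at the 5′ end in 124 of 132 pairs, by a median over all 132 of 27 bases, and at the 3′ end in 5. In genome coordinates both are one arrangement. The Cufflinks-source transcript started at the same or a higher coordinate than its nearest_ref and ended at a higher one in 276 of 286 pairs (96.5%). Among the other transcripts, 1008 pairs with a GENCODE M1 transcript of the same introns that is no oId or nearest_ref of the file could be formed. That arrangement held in 124 of them (12.3%), and the deposited transcript spanned its partner whole in 855 (84.8%), against 141 of 286 (49.3%) for the Cufflinks-source pairs.

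**Figure D3:**
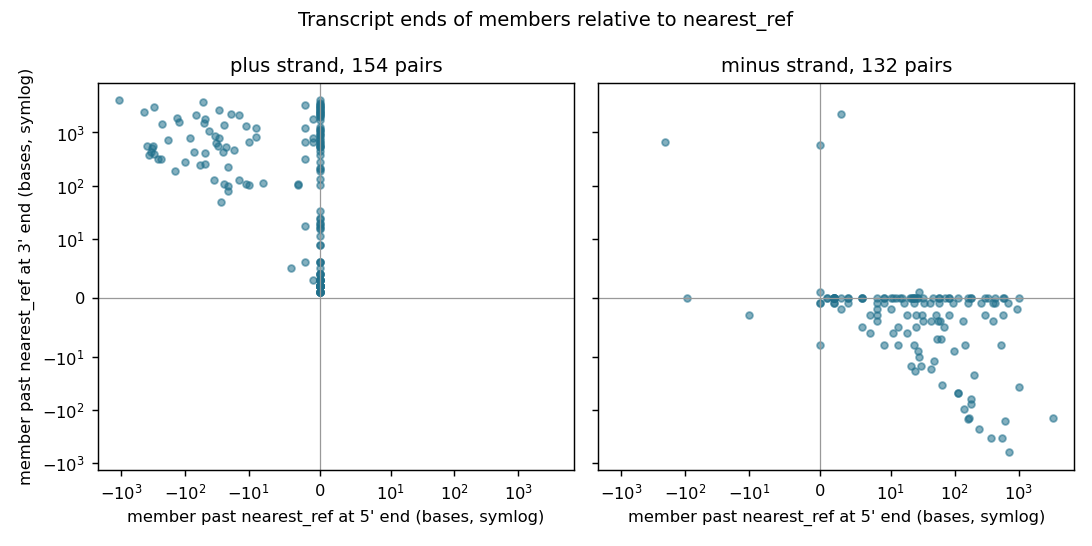
Bases by which the Cufflinks-source transcript reaches past its nearest_ref at the 5′ end (horizontal) and the 3′ end (vertical), 1 point per pair with the same introns, on symmetric log axes that are linear within 10 bases of 0. All 154 plus-strand pairs lie above 0 on the 3′ axis, and 124 of 132 minus-strand pairs lie right of 0 on the 5′ axis.

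The larger differences were at the 3′ end, where 110 pairs differed by over 100 bases, against 55 pairs at the 5′ end. The deposited model ran over 100 bases past its nearest_ref at the 3′ end in 102 pairs and over 1000 bases in 43. Mum1l1 had 3 Cufflinks-source transcripts of 6, 5 and 4 exons on chromosome X. They were spliced to 4523, 4343 and 4182 bases, against 1165, 1049 and 649 bases in their nearest_refs. The 3 transcripts of Mum1l1 thus carried 3360, 3294 and 3533 extra bases at the 3′ end. Lmo2, a LIM-only partner of haematopoietic transcription factors, had a pair of transcripts of 1529 and 1605 bases, against 710 and 848 bases. GENCODE M1 gives none of these Mum1l1 and Lmo2 nearest_refs a complete coding sequence, so they may be partial models. Sytl3, a synaptotagmin-like Rab27 effector, had a pair that ran 2 and 208 bases past the nearest_ref. In Grip1 the deposited transcript was 4722 bases long, against 3236 bases, and in Pard3 it ran 2172 bases past the 3′ end of its nearest_ref. Rpl22, a protein of the large ribosomal subunit, ran 1595 bases past its nearest_ref at the 3′ end and began downstream of it.

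The hexamer AATAAA, the canonical polyadenylation signal, was searched in the last 50 bases of each end on both strands. Over the 227 pairs with introns whose 3′ ends differ, it stood on the transcribed strand at 112 ends of the Cufflinks-source transcripts (49.3%; interval 42.9 to 55.8%) and at 91 ends of the nearest_refs (40.1%; 33.9 to 46.6%). Both ends belong to one pair, so the intervals are not independent and their overlap decides nothing. Of all 286 pairs, 150 had 3′ ends within 10 bases, 49 of these at the same base. Ends that close share most letters of their windows. In the 102 pairs in which the Cufflinks-source transcript ran over 100 bases past its nearest_ref, it stood at 42 ends of the Cufflinks-source transcripts (41.2%; interval 32.1 to 50.9%) and at 19 ends of the nearest_refs (18.6%; 12.3 to 27.3%). These nearest_refs include models with incomplete coding sequences, such as those of Mum1l1 and Lmo2. The other transcripts with introns held it at 34.5% of their ends. On the opposite strand, for the 102 pairs, it was present at 3.92% of the Cufflinks-source ends, 4.90% of the nearest_ref ends and 5.11% of the other ends. A match of letters is a description of the window, not a measured cleavage site.

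The deposited models have no coding sequence of their own, so the coding sequences compared are those that GENCODE M1 gives the oId and the nearest_ref. They were compared in the 206 pairs with the same introns in all 3 models. Both references were coding in 160, and their coding sequences differed in 154 of these (96.2%; interval 92.1 to 98.3%). A difference of this kind was not particular to the Cufflinks-source transcripts. In the other transcripts, 847 of 885 coding pairs (95.7%) differed. The start differed in 115 of the 160, the stop in 23 and both in 16. In 21 of the 23 pairs that differed at the stop, GENCODE M1 gives the nearest_ref no stop codon. Of 99 pairs with complete but different coding sequences, 84 had a nearest_ref coding sequence that no other transcript of the file carried.

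**Figure D4:**
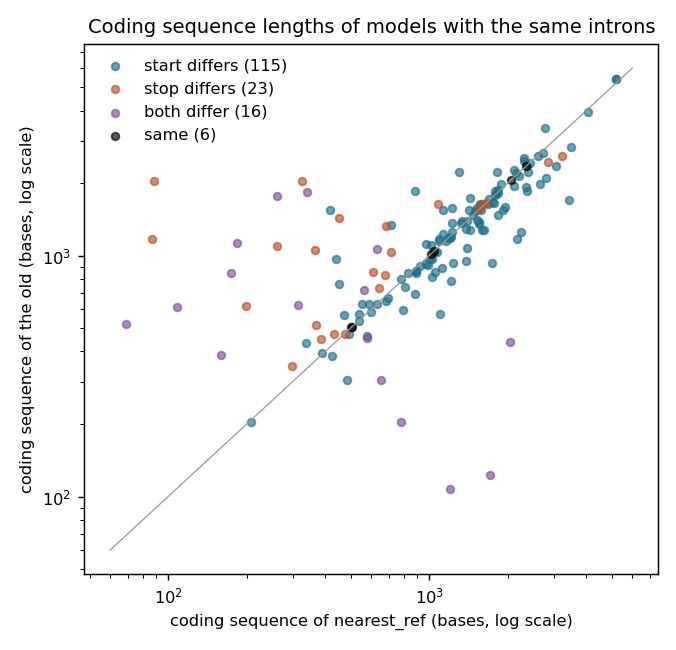
Length of the coding sequence in bases, stop codon not counted, of the oId of the Cufflinks-source transcript (vertical) and of its nearest_ref (horizontal), both on log axes, for 160 pairs with the same introns. The line marks equal length, and the 115 pairs that differ at the start lie on both sides of it.

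In 88 pairs both coding sequences were complete, ended at the same stop codon and began at different ATG codons. The starts were in one frame in all 88, with a median of 27.5 codons between them (quartiles 10.8 to 66.8, range 1 to 573). The oId had the shorter coding sequence in 56 pairs and the longer one in 32, although the deposited transcript was longer than the nearest_ref in 83 of 88. By strand, the coding sequence of the oId was shorter in 30 of 40 pairs on the plus strand and in 26 of 48 on the minus strand. In 27 of the 88 pairs, 24 of them on the plus strand, the 2 models began transcription at the same base, so that only the annotated start codon differed at the 5′ end.

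**Figure D5:**
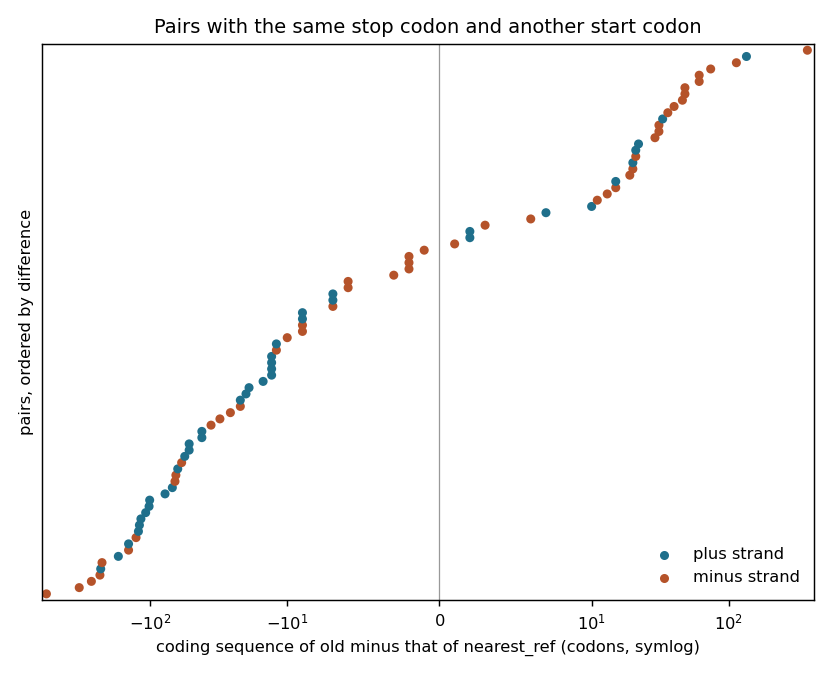
Difference in coding sequence, oId of the Cufflinks-source transcript minus nearest_ref, in codons (horizontal, symmetric log axis, linear within 10 codons of 0) for the 88 pairs with a shared stop codon, 1 row per pair, coloured by strand. Values run down to 573 codons fewer in Ttc17 and up to 376 codons more in Fam189a1, and 22 pairs differ by up to 10 codons.

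Ion channels and signalling proteins were among these genes. Kcnj12, an inward rectifier potassium channel, had 1281 coding bases in its oId and 1587 in its nearest_ref, 102 codons more, from the same transcription start. Kcnk15, a member of the two-pore-domain potassium channel family, had 972 coding bases in its oId, against 1029 in its nearest_ref.

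Gng7, the G protein gamma7 subunit that works with Golf in striatal neurons, had 204 coding bases in its oId, against 207 in its nearest_ref. Its longer coding sequence opens with a pair of adjacent ATG codons, as printed above, and GENCODE M1 begins the oId at the second. Mia1, which encodes a secreted cartilage protein, opens the same way, and there the oId begins at the first, with 393 coding bases, against 390 in the nearest_ref. Rgs11, a regulator of G protein signalling, had 1398 coding bases in its oId, against 1392 in its nearest_ref. Gng7, Mia1 and Rgs11 were named after their values were seen.

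Mast2 had a pair of Cufflinks-source transcripts, each with 12 other transcripts at the locus. Their oIds had 5400 and 5382 coding bases, against 5217 and 5199 in the nearest_refs, the same 61 codons in both. Fam189a1 had 1545 coding bases in its oId and 417 in its nearest_ref. Ttc17 had 1704 in its oId, against 3423. The oId of Krt32, a hair keratin, had 1359 coding bases, against 1221 in the nearest_ref, and that of Kif24, a kinesin of the centriole, had 3960, against 4068.

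Vegfa had 3 Cufflinks-source transcripts, of 7, 6 and 3 exons, each with 9 other transcripts at the locus. All 3 began at the same base. The 7-exon and 6-exon models were 3456 and 3324 bases long. In GENCODE M1 their oIds took opposite sides of one choice of start codon, and their nearest_refs the reverse. The 7-exon model had an oId of 570 coding bases from an ATG, against 1104 bases in its nearest_ref from the CTG printed above. The 6-exon model had an oId of 972 coding bases from that CTG, against 438 bases in its nearest_ref. The distance was 178 codons in both. The 3-exon model, 1446 bases long, was matched with a retained-intron nearest_ref and had no p_id. In Wt1 the oId had 1347 coding bases from an ATG, and the nearest_ref 1551 from the CTG printed above, 68 codons upstream. Of 27 pairs in which the start differed and 1 coding sequence was incomplete, the incomplete one opened with CTG in 4, the Vegfa pairs, Wt1 and Pigx, and with ATG in 1. Wt1 and Pigx were named after their values were seen.

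The p_id, the identifier of a coding sequence in the file, was present on 279 of the 391 (71.4%; interval 66.7 to 75.6%), against 57.7% of the other transcripts and 59.0% of the other transcripts at the same loci. It followed the nearest_ref. In the 206 pairs, all 164 with a coding nearest_ref had a p_id, including 4 whose oId was not coding, and all 42 with a non-coding nearest_ref had none, including 8 whose oId was coding. Zfp239 and Rpl22 were among those without a p_id, with a protein-coding oId and a nearest_ref of type processed_transcript. A tss_id, which groups transcripts by start site, was present on the 327 with introns and on none of the 64 single exons.

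The gene name also followed the nearest_ref. The oId and the nearest_ref belonged to the same GENCODE M1 gene in 262 of 276 pairs and to different genes in 14. In 5 of the 14 the gene symbols differed too, and the deposited gene_name was that of the nearest_ref in all 5. The pair of Cufflinks-source transcripts named 2310045N01Rik on chromosome 8, of 9 exons and 1312 and 1342 bases, had oIds that GENCODE M1 assigns to Mef2b, a MEF2 transcription factor. Their coding sequences, 1017 and 1047 bases, were the same in the oId and the nearest_ref. The transcript named Rpl13a on chromosome 7 had an oId of Flt3l, a cytokine ligand of dendritic cell progenitors. GENCODE M1 types that oId as nonsense-mediated decay and gives it the same 507 coding bases as the protein-coding Rpl13a nearest_ref. The transcript named Med20, a Mediator subunit, had an oId of the deubiquitinase gene Usp49 with the same 2055 coding bases, and the one named Hyal1 an oId of Nat6. Med20 and Hyal1 were named because the count is 5.

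Gaps of 1 to 4 bases marked the references of 70 of the 391. In 37 of 342 with an oId in GENCODE M1 (10.8%; interval 7.95 to 14.6%) the exons of the oId became those of the deposited transcript only after such gaps were closed, against 796 of 86816 others (0.917%) and 7 of 1551 others at the same loci (0.451%). In 33 more the nearest_ref had such gaps, and in none were they found in both. The 51 gaps of the oIds held 1 base in 15 cases, 2 bases in 28 and 4 bases in 8, and none held 3. The 40 gaps of the nearest_refs held 1 base in 14, 2 in 20 and 4 in 6. The 1085 gaps of the other transcripts likewise included none of 3 bases. Gaps of these sizes move the reading frame, and 43 of the 51 and 35 of the 40 lay inside the annotated coding sequence. Vegfa (the 3-exon model), Myo1c, Smc2, Zfp954 and Zfp768 carried them in the oId. Stat2, Rpl14, Zkscan3 and Olfr1341 carried them in the nearest_ref.

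Pseudogenes were more frequent among the Cufflinks-source transcripts than in the rest of the file. By the oId, GENCODE M1 types 61 of the 391 as a pseudogene or a retrotransposed gene (15.6%), against 4967 others (5.69%). Protein-coding types took 63.7%, against 53.7%, retained introns 4.86%, against 12.1%, and processed transcripts 1.53%, against 13.7%. All these shares count transcripts without a type, whose oId GENCODE M1 does not hold. They were 49 of the 391 (12.5%), against 533 others (0.610%), which lowers the shares of the Cufflinks-source transcripts more. By the nearest_ref, the shares of the Cufflinks-source transcripts were 15.9% for pseudogene types, 63.9% for protein-coding types, 4.60% for retained introns and 4.60% for processed transcripts. Of the 41 with the same oId and nearest_ref, 37 were of a pseudogene type. The 4 protein-coding ones were Olfr23, an olfactory receptor, 1700010M22Rik, 4930480E11Rik and Mageb1, named because the count is small. No nearest_ref of these 41 could serve as a partner, so the GENCODE M1 transcript of the same strand with the largest reciprocal overlap (at least 80% of both spans) was taken.

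All 41 had such a partner, against 304 of the 11627 other single-exon transcripts with an oId in GENCODE M1 (2.61%). In all 41 the partner began at the same lowest coordinate, as it did for 51 of the 11627, and the deposited transcript ended 1 to 167 bases higher (median 5). None of the 41 partners was an oId of the file. Over all 59 single-exon pairs, 29 differed at the 5′ end alone, 25 at the 3′ end alone and 5 at both ends. In the 25, the Cufflinks-source transcript ended in a stop triplet (TAA, TAG or TGA) in 20 (80.0%), against 49.3% of 3897 other single-exon transcripts of the pseudogene biotype. In 7 of the 25 the difference was 3 bases, and in all 7 these bases were a stop triplet, as printed above for 5 of them. Gm5456 and RP24-152K24.5, on chromosome 14, ended in the same 30 letters.

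The lists of gene families held few of these transcripts. The 379 loci were 1.07% of all loci, so a short list may hold none at that share, and its absence says little. Olfactory receptor names had 7 of 1228 loci (0.570%), all single-exon models, and Olfr23 and Olfr1341 were the ones with a p_id. The others were Olfr377-ps1, Olfr1144-ps1, Olfr1175-ps, Olfr1191-ps1 and Olfr1343-ps1. Vomeronasal receptor names had 2 of 207, the pseudogenes Vmn1r-ps103 and Vmn1r190-ps. Zinc finger names had 8 of 383 loci (2.09%) and ribosomal proteins 4 of 81 (4.94%; Rpl10, Rpl13a, Rpl14 and Rpl22). Potassium channels had 2 of 93 (2.15%) and motor proteins 2 of 83 (2.41%). Keratins had 1 of 100, Krt32. The neuronal RNA-binding gene Elavl4 was the 1 of 20 (5.00%) from the splicing factor families. The histone methyltransferase Suv39h2 was the 1 of 25 from the chromatin enzymes. Medium spiny neuron genes (0 of 14 loci), immediate early genes (0 of 18), glutamate receptors (0 of 27), histones (0 of 67), clustered protocadherins (0 of 24), sodium and calcium channel alpha subunits (0 of 19), selenoproteins (0 of 18), programmed frameshift genes (0 of 3) and a short list of genes taken from the study's text, which does not hold E2f3 (0 of 7), had none.

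At their loci, 277 of the 391 had other transcripts (70.8%, against 75.1% of the rest). Those 277 had a median of 5 others and at most 26, and over all 391 the median was 3. The 1562 other transcripts at these loci were of protein_coding biotype by the source column in 98.1%, and 59.0% of them had a p_id. The other 114 stood alone, among them Copb1 (22 exons), Ddx54 (20), Erap1 (19), Lonp1 (18) and Cyp4a30b-ps (12). Of 2071 introns in Cufflinks-source transcripts with company, 1796 (86.7%) recurred in another transcript of the locus, against 86.1% in the rest of the file. Every intron recurred in 137 of 275 (49.8%; interval 44.0 to 55.7%), against 38.2%. The start base was shared with another transcript in 78 of 277 (28.2%; 23.2 to 33.7%), against 18.8%, and the end base in 95 (34.3%; 29.0 to 40.1%), against 21.6%. The TSS group was shared in 66.2% (60.4 to 71.5%), against 58.4%, and the p_id in 30 of 234 (12.8%), against 18.5%. Among the other transcripts at the same loci, 88.8% of introns recurred. Every intron recurred in 43.8% of them (41.4 to 46.3%), and the TSS group was shared in 60.7% (58.2 to 63.1%). Both of these intervals overlap those of the Cufflinks-source transcripts. The same others shared the start base in 20.7%, the end base in 22.5% and the p_id in 18.2%. Genes with a pair of Cufflinks-source transcripts were 2310045N01Rik, D4Ertd22e, Lmo2, Mast2, Pecam1, Sytl3 and Ttll9. Those of Pecam1, the endothelial adhesion molecule, had 15 and 14 exons and 3305 and 3248 bases, and began 22 and 16 bases upstream of their nearest_refs. In D4Ertd22e the 3-exon and 4-exon models began 21 and 30 bases upstream, and in Ttll9 the 15-exon model ended 1142 bases past its nearest_ref.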

How the data were processed

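The authors deposited 1 gene model file for the 12 samples, with the start and end of each exon in bases on mm9 (NCBIM37) and identifiers as other attributes. Reads were aligned with TopHat and analysed with the Cufflinks package and Cuffdiff against an Ensembl gene set, after base calling with CASAVA. Their versions are not stated in the labels or methods read. The file has no column of per-sample values.

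Exons were grouped by transcript_id (Python 3.11.15), and transcripts with the source Cufflinks were compared with all others by counts, medians and shares with 95% Wilson intervals. No test was made, since the file is a complete list. Coding sequences, types and partners came from GENCODE M1 and letters from the NCBIM37 genome (pysam 0.24.0). GENCODE M1 differs from the Ensembl reference used for the file, and lacks the oId of 49 Cufflinks-source transcripts and of 533 others. The functions were tested on simulated models, and 11 of 11 tests passed.

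Named by rule were all members of genes with 2 or more, the 10 with the most exons, the 5 with the longest span, the 5 longest single exons, those of the gene family lists and up to 5 that stand alone. Members and lists were chosen with earlier results of these data known. Others named are marked in the text. The comparisons with GENCODE M1 were chosen after the data were seen. A few of the transcripts that the rule names, and 1 gene list, are not reported here.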

Additional observations from a re-analysis of the deposited data

How the results depend on the processing

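Of 26 alternative settings, 23 were labelled the same and 3 moved, which is no measure of robustness. The 23 include recounts of gene families by gene name, and the changes on chromosome X and in the ratios given below. The excess in the share with a p_id, 13.6 percentage points over the other transcripts, was 12.3 against others at the same loci and 21.1 among transcripts with more than 1 exon. With ends matched within 10 bases in place of exactly, the share of the Cufflinks-source transcripts with the start of another transcript was 44.4% in place of 28.2%, and with its end 52.7% in place of 34.3%, against 33.5% and 34.4% in the rest of the file. The excess on chromosome X, 3.52 percentage points by transcript, was 1.62 by locus. The ratio of median spliced lengths, 1.90, was 1.45 against transcripts whose source column reads protein_coding. Against these the ratio of median exon numbers, 1.25, was 1.00. No paired analysis was possible because the file holds no value per sample. Without counts, depth limits cannot be given.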
